A study of Homo sapiens with 36 samples.

Results

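The aryl hydrocarbon receptor and the enzymes it switches on form one of the best known xenobiotic responses of the airway epithelium. Ligands such as the polycyclic hydrocarbons of smoke bind AHR in the cytoplasm, AHR then pairs with ARNT in the nucleus, and the pair binds a short response element whose core reads GCGTG near genes of oxidative metabolism. Aldehyde dehydrogenases oxidise the aldehydes that such metabolism and lipid peroxidation give rise to, and those of the ALDH1A family make retinoic acid. The 8 genes described here, of 20033 protein-coding genes on chromosomes 1 to 22, X and Y, were the receptor AHR, its repressor AHRR, its targets CYP1A1, CYP1B1 and TIPARP, and the aldehyde dehydrogenases ALDH1A1, ALDH1A3 and ALDH3A1. They were chosen by name and by no rule on their values, but with earlier results of these data known. All 8 were found in the gene models, and each is followed below through every peak list.

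The lines were A549, derived from a lung adenocarcinoma, and BEAS-2B (B2B), an immortalized line of non-cancerous bronchial epithelium, and binding was measured by chromatin immunoprecipitation and sequencing (ChIP-seq). The 36 samples formed 18 groups of 2 replicates, 4 of the samples being input chromatin, and all came from formaldehyde-fixed cells of these lines, for which the labels give no treatment. Both lines were probed for RNA polymerase II (pol II) and H3K4me3, which mark promoters, for H3K27ac and the Mediator subunit Med1, which mark active enhancers, and for the AP-1 subunits JunB, Jun and JunD. Lists of the insulator proteins CTCF and Rad21, the latter a part of cohesin, were used for B2B alone. Each line is a single cultured line. The authors pooled the replicates before they called peaks, so every value below comes from a single list with no replicate error, and no test of a difference was possible. A peak is given with its fold enrichment, which is its pileup over the local background of the peak caller, and with its percentile, which is the percent of peaks in the same list with a lower fold enrichment. Fold enrichments were compared within a list only, and the strongest peak is the one of highest fold enrichment, not of largest pileup. Across lists they were added up in one case, to choose which Jun-family regions to name, and a region of both lines can then sum more peaks than a region of 1 line.

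The 16 lists held 8563 to 61225 peaks, and their read depth was not stated in the sources used here. A549 held 28068 JunB peaks and B2B 8563. The lists of A549 pol II, A549 H3K27ac and Med1 of both lines ended early, on chromosomes 20, 13 and 15. CYP1A1 and ALDH1A3 on chromosome 15 and ALDH3A1 on chromosome 17 lay past the end of the A549 H3K27ac list and of both Med1 lists, and were not analysed there. The line labels were checked on CDKN2A and CDKN2B, which A549 is known to lack. Neither had a promoter peak in any A549 list, and both had peaks of pol II, H3K4me3, H3K27ac and Med1 in B2B. The epithelial genes EPCAM, CDH1, KRT8 and KRT18 had pol II and H3K4me3 peaks in both lines. So did the mesenchymal genes VIM and FN1 and the alveolar gene SFTPC. ZEB1, NKX2-1 and ABCA3 had H3K4me3 in both lines and pol II in A549 alone, and SFTPB had neither mark. Of the blood genes, PTPRC had H3K4me3 in A549 and CD3E had no peak in any list. Of the basal airway genes, KRT14 had no promoter peak in any list that reached it, and KRT5 and TP63 had none in B2B. Such calls do not by themselves identify a cell type.

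A few sequences from under the peaks are printed as examples. At CYP1A1, the only pol II peak had its summit 963 bp upstream of the start, and the 300 bp around that summit (hg38 chr15:74726341-74726640, minus strand) are printed 5′ to 3′ along the gene, with the core GCGTG or its complement CACGC in capitals.
CYP1A1, pol II summit in A549: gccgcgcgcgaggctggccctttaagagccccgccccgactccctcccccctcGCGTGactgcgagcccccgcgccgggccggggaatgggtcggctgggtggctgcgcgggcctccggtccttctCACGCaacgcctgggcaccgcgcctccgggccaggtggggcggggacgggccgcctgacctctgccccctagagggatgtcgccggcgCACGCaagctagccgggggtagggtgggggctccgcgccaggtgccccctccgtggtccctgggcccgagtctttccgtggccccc
The core occurred 3 times in this window. Among all 45938 pol II summits in A549, at promoters or elsewhere, 34.1% of windows of this length held the core at least once and 2.99% at least 3 times. At the strongest promoter summit of the other genes, the window held 4 copies at CYP1B1, 2 at AHRR and 0 at TIPARP. It held 1 copy at AHR, ALDH1A1, ALDH1A3 and ALDH3A1.

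For the Jun family, 101 bp windows around the highest summit of a region are printed on the plus strand, with the AP-1 motif TGACTCA or TGAGTCA in capitals. They are the regions of highest summed fold enrichment at AHR and ALDH1A1 among those called in both lines, the B2B region upstream of TIPARP, and, for contrast, the strongest A549 region inside ALDH1A1, which held no copy of the motif.
AHR, both lines, chr7:17408641-17408741: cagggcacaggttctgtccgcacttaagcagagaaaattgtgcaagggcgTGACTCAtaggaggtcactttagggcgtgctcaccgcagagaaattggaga
ALDH1A1, both lines, chr9:73149621-73149721: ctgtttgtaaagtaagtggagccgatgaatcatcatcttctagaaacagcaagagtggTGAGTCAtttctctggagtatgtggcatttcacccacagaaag
TIPARP, B2B alone, chr3:156630548-156630648: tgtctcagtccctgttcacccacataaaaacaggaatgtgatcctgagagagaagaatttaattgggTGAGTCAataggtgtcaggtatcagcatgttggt
ALDH1A1, A549 alone, chr9:73050971-73051071: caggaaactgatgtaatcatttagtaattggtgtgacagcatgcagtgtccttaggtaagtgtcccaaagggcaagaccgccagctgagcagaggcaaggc
The motif centre lay 3 bp from the summit at AHR, 11 bp at ALDH1A1 and 20 bp at TIPARP. The printed windows do not show how common the motif was. Of the 139 Jun-family regions counted below, 40 held it, against 35.1% of such regions of the genome. The strongest TIPARP regions of A549 alone and of both lines, not printed, held no copy. A match describes these letters only and is not a measured contact of the protein.

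The 8 genes split into 2 sets by the marks at their starts. AHR, AHRR, CYP1B1 and TIPARP carried pol II and H3K4me3 peaks in both lines. ALDH1A1, ALDH1A3 and ALDH3A1 carried both marks in A549 and neither in B2B. CYP1A1 lay between, with pol II in A549 alone and H3K4me3 in both lines. A pol II peak within 3 kb of a start site was found at 8 of 8 genes in A549, where 69.6% of the genes compared had one, and at 4 of 8 in B2B, where 51.9% had one. A pol II peak in A549 alone was seen at 4 of the 8 genes and at 19.5% of all genes compared. For H3K4me3 the counts were 8 of 8 in A549, against 73.8% of all genes, and 5 of 8 in B2B, against 62.8%. H3K4me3 in A549 alone was seen at 3 of the 8 genes, the aldehyde dehydrogenases, and at 12.9% of all genes.

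Enhancer marks could be compared at 5 genes. H3K27ac peaks were found at 5 of 5 in A549, against 73.5% of the genes compared, and at 4 of 5 in B2B, against 64.3%. ALDH1A1 was the gene without one in B2B. Med1 peaks were found at 4 of 5 in each line, against 54.7% of genes in A549 and 61.1% in B2B. The gene without Med1 was AHRR in A549 and ALDH1A1 in B2B. Around ALDH1A1 the B2B lists of H3K27ac and Med1 were empty for 2.42 and 2.11 Mb, as described below. The 3 genes past the end of the A549 H3K27ac list all had an H3K27ac peak in B2B, of 4.39-fold at CYP1A1, 3.12-fold at ALDH1A3 and 3.59-fold at ALDH3A1, which were the 32.2, 11.0 and 18.5 percentiles of that list. In B2B, CTCF was found at 6 of the 8 genes, against 50.1% of all genes, and Rad21 at 7 of 8, against 68%.

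**Figure D1:**
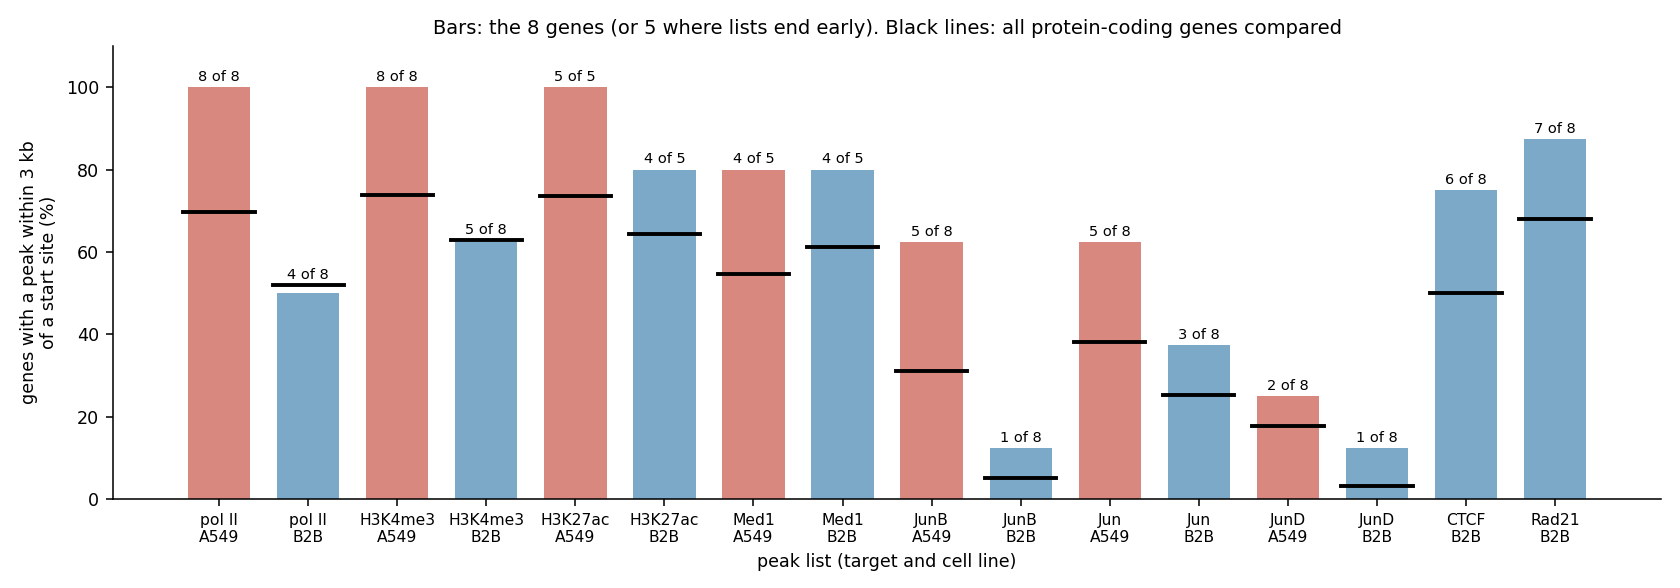
Percent of genes with a peak within 3 kb of a start site in each peak list. Red and blue bars are the 8 genes (5 for H3K27ac and Med1) in A549 and B2B, and black lines are all protein-coding genes compared. In A549 the bars stand above the line in all 7 lists, and in B2B the pol II bar, 4 of 8, stands just below its line at 51.9%.

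JunB was called near a start of 5 of the 8 genes in A549, against 31.1% of all genes, and of 1 in B2B, against 5.28%. This count rested on the length of the lists. With both JunB lists held to their 8563 most significant peaks, 0 of the 8 genes kept a JunB peak in A549 and 1 kept it in B2B. Jun was called at 5 of 8 genes in A549, against 38.2%, and at 3 of 8 in B2B, against 25.4%. JunD was called at 2 of 8 in A549, against 17.8%, and at 1 of 8 in B2B, against 3.22%. At AHRR, CYP1A1 and ALDH1A3, neither line had a peak of JunB, Jun or JunD within 3 kb of a start. Where only the RefSeq start of each gene was used, a choice made after the data were seen, JunB was called at 0, Jun at 1 and JunD at 0 of the genes in B2B, while those in A549 stayed at 5, 5 and 2.

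**Figure D2:**
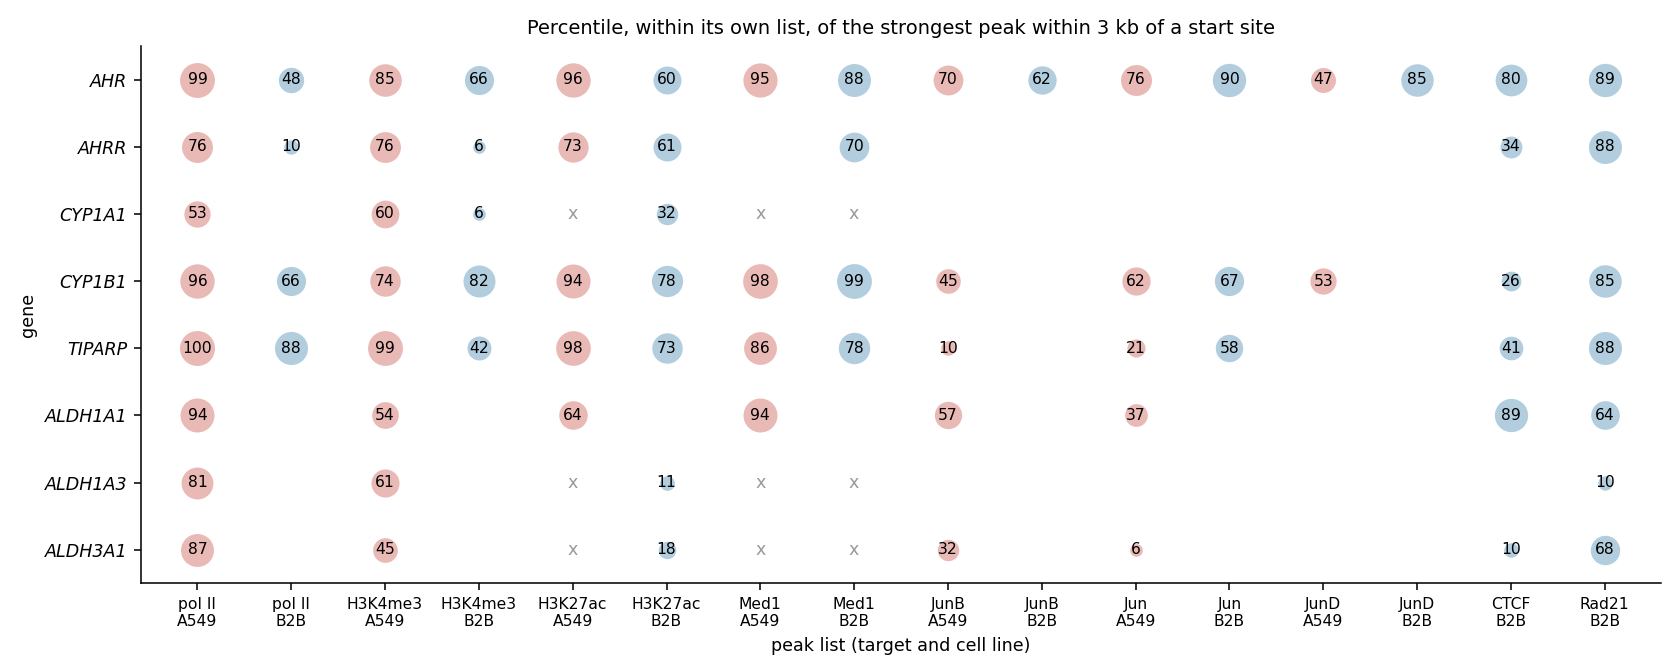
Strongest peak within 3 kb of a start site of each gene (rows) in each of the 16 peak lists (columns), as its percentile within that list, printed in the disc and scaled to its area. Red is A549, blue is B2B, an empty cell is no peak, and x marks a gene past the end of the list. The lower 3 rows hold no blue disc for pol II or H3K4me3.

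AHR, the receptor itself, was the gene of the set with a peak in all 16 lists. Its start sites span 419 kb, because annotated starts lie on both sides of the RefSeq start at chr7:17298652, and peaks at the starts differed. At the RefSeq start, pol II reached 100-fold in A549, which is the 99.1 percentile, with the summit 28 bp downstream. In B2B the pol II peak there was 4.8-fold, the 48.4 percentile, with the summit at 29 bp. H3K27ac was 97.9-fold in A549, the 95.7 percentile, and 6.22-fold in B2B, the 60.5 percentile. Med1 was 19.6-fold and 12.2-fold, the 94.9 and 87.5 percentiles.

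The fold enrichments of the 2 lines at this start cannot be set against each other. Over the 8 genes, the background of pol II, H3K4me3 and H3K27ac differed between the lines, as given below. At this start it could not be solved for pol II and H3K27ac in A549. For Med1 it was 1.85 reads in A549 and 2.04 in B2B. The pileup solved from the deposited values was 232 reads over a background of 47.5 reads for pol II in B2B, and the background was 38.7 reads for H3K27ac in B2B. Over the promoter peaks of all 8 genes, the solved background had a median of 2.67 reads for pol II in A549 and 38.5 reads in B2B. For H3K4me3 the medians were 3.99 and 25 reads, and for H3K27ac 3.53 and 33.6 reads. For Med1 they were 2.27 and 2.45 reads. Within the B2B pol II list the solved background ranged from 1.67 to 64.2 reads over these peaks. A higher fold enrichment there need not be a larger pileup. The part of this background in the B2B counts was not tested.

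All 3 Jun proteins had peaks with summits 10 to 126 bp from the RefSeq start of AHR in A549, and none had one within 3 kb of it in B2B. These A549 peaks were weak for their lists. JunB was 5.35-fold, the 26.5 percentile, Jun 6.17-fold, the 20.1 percentile, and JunD 5.43-fold, the 46.6 percentile. In B2B the Jun-family peaks of AHR lay at the farthest upstream start and at others away from the RefSeq start. At 382348 bp upstream, Jun reached 24.5-fold in B2B, the 89.8 percentile, and 7.34-fold in A549, the 33.7 percentile. A second region 731 bp from that start (chr7:16915430-16915779) was called for all 3 proteins in B2B, with Jun at 24.0-fold, and for none in A549. None of the pol II, H3K4me3, H3K27ac and Med1 lists had a peak over it.

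AHRR, the repressor that competes with AHR for ARNT, had pol II and H3K4me3 peaks near its RefSeq start (chr5:321714) in both lines. The pol II summit lay 57 bp downstream in A549 and 58 bp in B2B, and the peak was 21.9-fold in A549, the 76.1 percentile, and 2.65-fold in B2B, the 9.95 percentile. The fold enrichment of pol II was higher farther into the gene, reaching 33.8-fold in A549 and 8.47-fold in B2B. H3K4me3 was 32.8-fold, the 75.5 percentile, in A549 and 1.88-fold, the 5.57 percentile, in B2B. H3K27ac over the RefSeq start was 34.4-fold in A549, the 72.6 percentile, and 4.73-fold in B2B, the 37.9 percentile. H3K27ac near a second start, 22451 bp downstream in A549 and 22420 bp in B2B, was 25.2-fold and 6.25-fold, the 67.7 and 60.9 percentiles. The strongest H3K27ac peak of the gene was in neither place and was 65.4-fold in A549 and 9.72-fold in B2B. Over the whole gene, H3K27ac peaks covered 6.07% of the length in A549, in 10 peaks, and 13.9% in B2B, in 18 peaks. Med1 was called at AHRR in B2B alone, at 8.21-fold, the 69.8 percentile. B2B also had CTCF and Rad21 peaks at a downstream start, with Rad21 at 14.3-fold, the 87.5 percentile.

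CYP1A1, the monooxygenase most used to report AHR activity, had 2 peaks in A549 and 2 in B2B in the lists that reached it. Its pol II peak in A549 was 7.26-fold, the 52.8 percentile. Its H3K4me3 peak was 21.6-fold in A549, the 59.7 percentile, with the summit 525 bp upstream, and 1.90-fold in B2B, the 5.95 percentile, with the summit 830 bp upstream. H3K27ac in B2B was 4.39-fold with the summit 811 bp upstream. All 4 summits thus lay upstream of the start, and no pol II peak was centred on it. No Jun-family, CTCF or Rad21 peak lay within 3 kb. The GCGTG core occurred 10 times within 1500 bp on either side of the start, 8 of them between 500 and 1500 bp upstream, 2 nearer the start and 0 downstream. The same count was not made at other genes, and the core is short and common, being held by 36.5% of all promoters of 300 bp. The body of the gene was nearly bare, with pol II covering 1.2% of it in A549 and 0 in B2B.

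**Figure D3:**
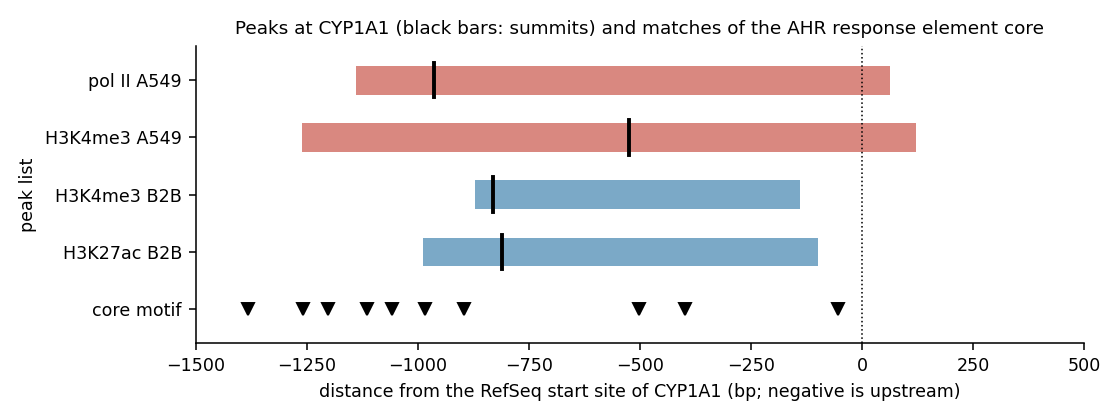
Peaks at CYP1A1 (bars; red A549, blue B2B; black ticks are summits) and matches of the AHR response element core (triangles) by distance from the RefSeq start in bp. All 4 summits lie between 525 and 963 bp upstream, and 8 of the 10 core matches lie between 500 and 1500 bp upstream.

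CYP1B1, a related monooxygenase that oxidises hydrocarbons and oestrogens, carried pol II, H3K4me3, H3K27ac and Med1 at its promoter in both lines. Med1 was 26.2-fold in A549 and 24.6-fold in B2B, the 97.8 and 98.6 percentiles, with the summits 655 and 670 bp upstream of the RefSeq start at chr2:38076151. H3K27ac formed a peak of 4474 bp in A549 and a peak of 3884 bp in B2B, longer than 99.7% and 99.9% of their lists. B2B had a further H3K27ac peak of 331 bp beside it, with its summit 1660 bp upstream. Pol II was 76.1-fold in A549, the 95.9 percentile, with the summit 986 bp upstream. In B2B the pol II peak there, with its summit 1057 bp upstream, was 4.34-fold, the 40 percentile. A B2B pol II peak at another start 7548 bp downstream was 5.98-fold, the 66.4 percentile. The first was solved as 195 reads over a background of 44.1, and the second as 15 reads over 1.67. H3K27ac was 89.3-fold in A549 and 7.86-fold in B2B, the 93.7 and 77.8 percentiles. H3K4me3 was 31.6-fold in A549, the 73.5 percentile, and the B2B peak nearest the RefSeq start was 2.88-fold, the 37.3 percentile. Med1 was thus the mark that stood near the top of its list in both lines. The Jun family differed at the start. JunB, Jun and JunD had their strongest peaks 531 to 864 bp upstream in A549, of 6.46-fold, 11.6-fold and 5.65-fold. In B2B the only Jun-family peak within 3 kb of any start was Jun at 12.1-fold, 30.6 kb upstream of the RefSeq start, near another annotated start.

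TIPARP, a mono-ADP-ribosyltransferase that is induced by AHR and acts back on it, had among the strongest peaks of the A549 lists. Pol II was 110-fold, the 99.7 percentile, H3K4me3 51.3-fold, the 98.8 percentile, and H3K27ac 110-fold, the 97.8 percentile. In B2B, H3K27ac was 7.37-fold, the 73.4 percentile, and pol II over the RefSeq start was 5.22-fold, the 55.7 percentile. Med1 was 13.2-fold and 9.60-fold, the 86.4 and 78.5 percentiles, in peaks of 2371 and 2305 bp. Pol II covered 60.7% of the gene in A549, in 19 peaks, and 17.4% in B2B, in 13 peaks. The B2B pol II peak of highest fold enrichment, 9.73-fold, lay 6602 bp downstream at an internal start, where Jun in B2B was 10.2-fold. This pol II peak was solved as 25 reads over a background of 1.67, against 242 over 45.6 at the RefSeq start. JunB in A549 had 3 peaks around the RefSeq start, from 3.21-fold to 4.51-fold, none of which was above the 10.2 percentile of its list. Jun at 1553 bp downstream was the single Jun-family promoter region of TIPARP called in both lines, at 5.98-fold in A549 and 5.39-fold in B2B.

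ALDH1A1, which oxidises retinaldehyde and is widely used as a marker of stem-like cells, had peaks within 3 kb of a start in A549 alone for 6 of the 7 targets compared, JunD being the exception with none in either line. At its RefSeq start (chr9:72953053) pol II was 65.6-fold in A549, the 93.6 percentile, and Med1 was 15.7-fold, the 91.0 percentile. H3K4me3 formed 1 peak of 10.5 kb across the start, and only 6 other peaks of that list were as long. Over the gene, pol II had 55 peaks that covered 30.2% of its length and H3K4me3 had 35 peaks that covered 19.9%. In B2B the gene held 0 peaks of pol II, H3K4me3 and H3K27ac, and the nearest pol II peak lay 179 kb from the RefSeq start. B2B did hold CTCF at 29.1-fold, the 89.3 percentile, and Rad21 at 8.48-fold, the 63.9 percentile, both 129 kb upstream beside the farthest annotated start.

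H3K27ac at ALDH1A1 did not follow the other marks. In A549 no H3K27ac peak lay within 3 kb of the RefSeq start, and the nearest was 13.2 kb away. The count of this gene as H3K27ac positive rested on peaks of 9.38-fold to 19.8-fold with summits 85755 to 128286 bp upstream. The strongest H3K27ac peak inside the gene was 41.9-fold, and all 12 peaks together covered 2.10% of it. In B2B, the H3K27ac list was empty for 2.42 Mb and the Med1 list for 2.11 Mb around ALDH1A1. That stretch also held ANXA1, the next gene upstream, where B2B had H3K4me3 of 33.1-fold, pol II of 41.5-fold and Jun of 55.9-fold but 0 peaks of H3K27ac or Med1. The absence of both enhancer marks in B2B was thus not particular to ALDH1A1.

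**Figure D4:**
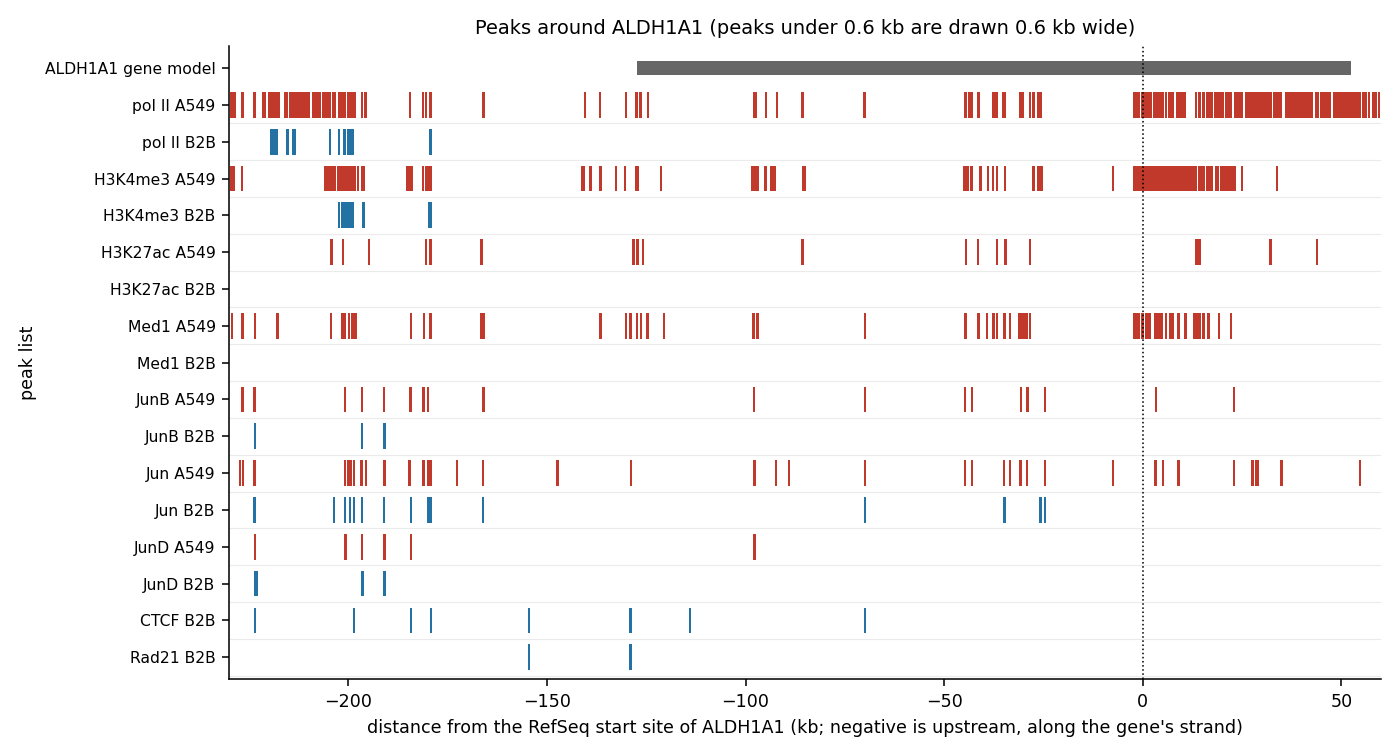
Peaks of the 16 lists around ALDH1A1, by distance in kb from its RefSeq start along its strand, with red bars for A549 and blue bars for B2B. Between the start and the end of the gene the A549 list of pol II is dense. The A549 list of H3K4me3 is dense to 25176 bp downstream of the start and sparse beyond. The B2B lists are empty there, and the B2B pol II and H3K4me3 peaks begin 179 kb upstream, near ANXA1.

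ALDH1A3, the other retinaldehyde dehydrogenase of the set, had a compact promoter in A549. Pol II was 31.2-fold, the 81.4 percentile, and H3K4me3 23-fold, the 61.3 percentile, in peaks of 1055 and 1830 bp. Beyond this pol II peak none lay in the gene in either line. In B2B the promoter held 3 H3K27ac peaks of 2.75-fold to 3.12-fold and 2 Rad21 peaks of 3.52-fold and 3.54-fold, none above the 11.0 percentile of its list. No other B2B list that reached this gene had a peak there.

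ALDH3A1, which oxidises aromatic and lipid-derived aldehydes, had pol II of 45.9-fold at 247 bp upstream of its start in A549, the 87.4 percentile. Pol II peaks covered 66.1% of the gene in A549, the largest share of the 8 genes, and 0 in B2B. Its H3K4me3 peak in A549 was lower, at 9.62-fold, the 45.3 percentile. JunB and Jun had peaks 396 and 280 bp upstream in A549, of 5.58-fold and 4.98-fold, the 32.2 and 5.84 percentiles, and no Jun-family peak lay there in B2B. In B2B, Rad21 at an internal start was 9.02-fold, the 67.8 percentile.

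Beyond the starts, Jun-family regions within 100 kb of any start of the 8 genes were counted, a region being a run of overlapping JunB, Jun or JunD peaks of either line. There were 139 regions. Of them 56, or 40.3%, were called in A549 alone, 46, or 33.1%, in B2B alone, and 37, or 26.6%, in both lines. Of the 72011 regions of the genome, 34.1% were called in A549 alone, 39.4% in B2B alone and 26.5% in both. The order of the first 2 turned on ALDH1A1. Without ALDH1A1, 29.2% of the 96 regions belonged to A549 alone and 45.8% to B2B alone. Of the 46 regions called in B2B alone, 42 had a peak of Jun and of neither other protein. The B2B lists held 45047 peaks of Jun, 8563 of JunB and 8597 of JunD. The share of such regions over the genome was not computed. The windows differed in length, from 200 kb at CYP1A1 to 603 kb at AHR.

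**Figure D5:**
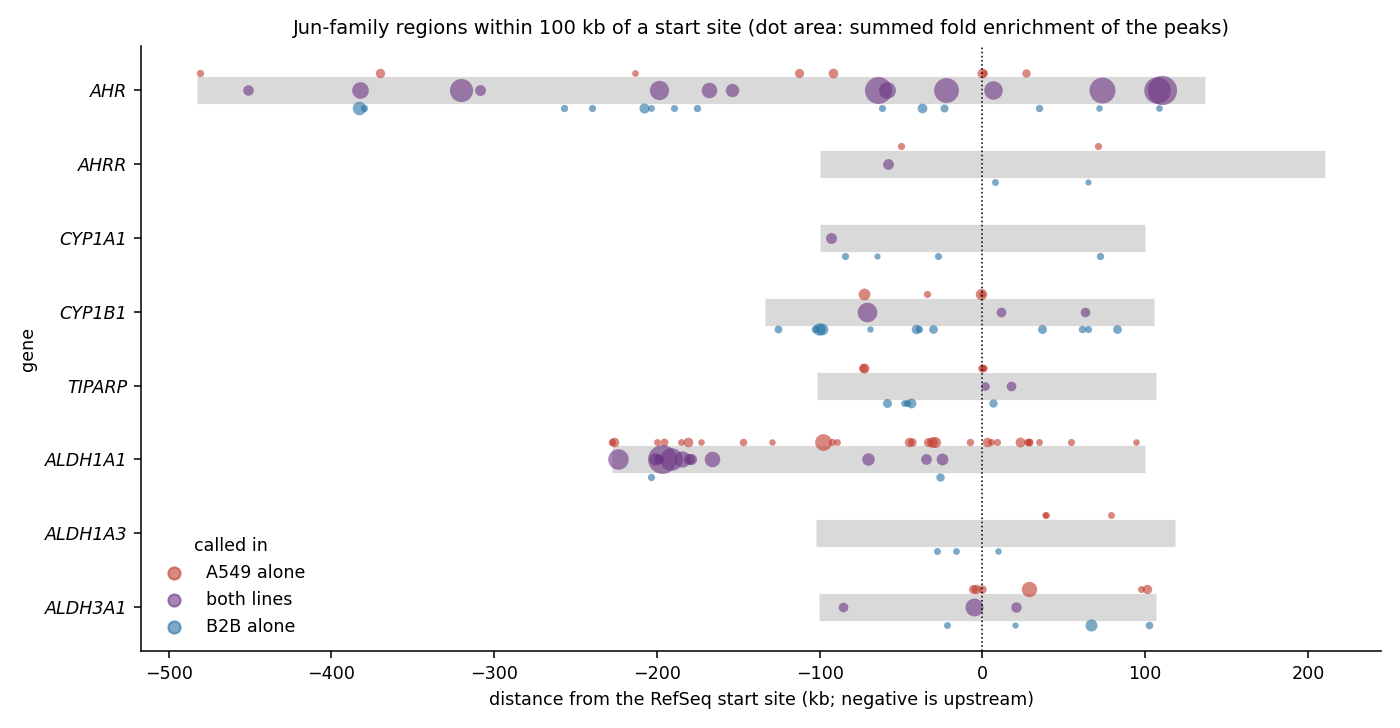
Jun-family regions within 100 kb of a start of each gene by distance in kb from its RefSeq start. Dots are regions called in A549 alone (red), in both lines (purple) or in B2B alone (blue), the area of a dot grows with the summed fold enrichment of its peaks over the lists, and grey bars are the windows searched. ALDH1A1 holds 28 red and 2 blue dots, CYP1B1 4 red and 12 blue.

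ALDH1A1 held 43 of these regions, 28 in A549 alone, 2 in B2B alone and 13 in both lines. Of the 28 A549 regions, 17 lay inside the gene, and 18 overlapped a pol II peak and 13 a Med1 peak of A549. Pol II peaks of A549 covered 30.2% of this gene, and the share of all regions with such overlaps was not computed. The strongest was in an intron (chr9:73050522-73051252), with Jun at 46.7-fold, JunB at 4.68-fold and JunD at 5.32-fold. An intronic region 3034 bp downstream of the RefSeq start, with JunB at 7.54-fold and Jun at 7.64-fold, overlapped pol II of 40.2-fold and Med1 of 18.0-fold in A549. ANXA1 was the nearest gene for 18 of the 43 regions. The region of highest sum among those of both lines lay 2.19 kb from its start (chr9:73149244-73149978), with Jun at 46.1-fold in A549 and 55.9-fold in B2B.

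AHR held 36 regions, 8 in A549 alone, 14 in B2B alone and 14 in both lines. The region with the highest summed fold enrichment, 183, was called in both lines and lay at chr7:17408396-17409278, where Jun was 49.5-fold in A549 and 53.8-fold in B2B. This region overlapped pol II and Med1 peaks in A549 and neither in B2B. Of the 14 regions of both lines, 11 overlapped a pol II peak and 7 a Med1 peak in A549, against 4 and 0 in B2B. None of the 14 regions of B2B alone overlapped a peak of pol II, H3K4me3, H3K27ac or Med1 in either line. The A549 and B2B lists held 45938 and 25234 pol II peaks, and 20026 and 20605 Med1 peaks. The shares of all regions of the genome with such overlaps were not computed.

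CYP1B1 had the opposite balance to ALDH1A1, with 4 regions in A549 alone, 12 in B2B alone and 3 in both lines. Its region of highest summed fold enrichment (chr2:38146271-38147670), 70.9 kb upstream in an exon of the antisense gene CYP1B1-AS1, had Jun at 17.6-fold in A549 and 39.2-fold in B2B. All 4 regions of A549 alone overlapped a pol II peak of A549. Of the 12 regions of B2B alone, 0 overlapped pol II or H3K4me3 peaks and 1 an H3K27ac and a Med1 peak of B2B. Here too, the shares of all regions with such overlaps were not computed. ALDH3A1 held 13 regions, 6 in A549 alone, 4 in B2B alone and 3 in both lines. Its region of highest sum lay 4.92 kb upstream (chr17:19752882-19753468), with Jun at 26.6-fold in A549 and 8.61-fold in B2B, and its strongest A549 region, at chr17:19719282-19719667, had Jun at 30.3-fold. For that region SLC47A2 was the nearest gene.

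The other genes had few regions. TIPARP held 12, of which 5 were called in A549 alone, 5 in B2B alone and 2 in both, and the B2B region 44 kb upstream printed above had Jun at 16.2-fold. ALDH1A3 held 6, AHRR 5 and CYP1A1 5. None of the 6 at ALDH1A3 was called in both lines, and the highest fold enrichment there was 5.69. The CYP1A1 region called in both lines lay 93.3 kb upstream in an intron of LMAN1L, with JunB at 8.77-fold and Jun at 8.06-fold in A549 and Jun at 4.89-fold in B2B.

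The AP-1 motif was sought within 101 bp around the highest summit of each region. It was found in 13 of the 56 regions of A549 alone, in 13 of the 46 of B2B alone and in 14 of the 37 of both lines. Over the whole genome it was found in 29.7%, 28.7% and 51.5% of such regions. The GCGTG core was found in 6 of the 139 regions, against 8.23% of all regions. The antioxidant response element, written TGACNNNGC, was found in 10 of the 139, against 7.82%, and the sequence TGACTCAGC counts as both this element and AP-1. All motifs were sought on both strands. In the RefSeq promoter table for GRCh38.p14, 250 bp before to 50 bp after a start, 6 of the 8 genes were found with 9 promoters. None of the 9 held the AP-1 motif, which 4.95% of all 35116 promoters did. The GCGTG core was present in 1 copy at AHR and CYP1A1, in 1 and 2 copies at the 2 promoters of AHRR, in 2 copies at the RefSeq start of TIPARP and at ALDH1A3, and in 0 at ALDH1A1 and the other TIPARP promoters, and 36.5% of all promoters held it.

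For each gene, the genes with the same pattern of calls over all lists that cover both were counted. AHR shared its pattern with 135 genes, AHRR with 131, CYP1A1 with 45, CYP1B1 with 415 and TIPARP with 309. ALDH1A1 shared its pattern with 13 genes, ALDH1A3 with 73 and ALDH3A1 with 17. ALDH1A1 and ALDH3A1 thus had the rarest patterns of the set, read over 16 lists for ALDH1A1 and 13 for ALDH3A1, CYP1A1 and ALDH1A3. The pattern of ALDH1A1 includes the B2B lists of H3K27ac and Med1, which were empty for 2.42 and 2.11 Mb around it.

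The partners of AHR and other genes of its response were read in the same way, as a list of 13 genes. Pol II was found at 10 of the 13 in A549, against 69.6% of all genes, and at 9 in B2B, against 51.9%. JunB was found at 6 in A549, against 31.1%, and at 3 in B2B, against 5.28%. Jun was found at 9 (38.2% of all genes) and 7 (25.4%), and JunD at 7 (17.8%) and 3 (3.22%). With JunB lists of equal length, an alternative added after the data were seen, JunB was found at 3 in each line, where 9.42% and 5.28% of all genes had it. At least 2 Jun proteins were called in A549 and none in B2B at PTGES3, a co-chaperone of HSP90, which holds AHR in the cytoplasm, at NQO1 and UGT1A6, which detoxify quinones and phenols, and at RELB, a subunit of NF-κB. NQO1 had JunB at 5.84-fold, Jun at 5.36-fold and JunD at 3.85-fold in A549. ARNT2, a paralog of the AHR partner ARNT, was the reverse, with JunB at 5.68-fold, Jun at 32.8-fold and JunD at 6.61-fold in B2B and none in A549. The shares of all genes with these patterns were not computed.

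Of the 16 other aldehyde dehydrogenases, 13 had a pol II peak in A549 and 9 in B2B, and 4 had it in A549 alone and 0 in B2B alone, against 19.5% and 1.84% of all genes. H3K4me3 was found at 14 and 13, against 73.8% and 62.8%. JunB was found at 7 and 1, against 31.1% and 5.28% of all genes. With lists of equal length it was found at 2 and 1, or 12.5% and 6.25%, against 9.42% and 5.28%. Jun was found at 8 and 7, against 38.2% and 25.4%, and JunD at 3 and 1, against 17.8% and 3.22%. Several of these counts were near the shares of all genes. ALDH2, the mitochondrial enzyme of ethanol metabolism, and ALDH16A1 had 2 Jun proteins in A549 and none in B2B. The share of all genes with this pattern was not computed. ALDH1A2, the third retinaldehyde dehydrogenase, had a Jun peak in both lines, of 68.4-fold in A549 and 33.5-fold in B2B. It had pol II in both lines, of 84.9-fold and 11-fold, and H3K4me3 in A549 alone.

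Of the 15 genes of the retinoid pathway, 12 had pol II in A549 and 6 in B2B, and H3K4me3 was found at 13 and 8, where all genes had the shares given above. JunB was found at 9 and 2, against 31.1% and 5.28% of all genes. With lists of equal length it was found at 4 and 2, against 9.42% and 5.28%. Jun was found at 8 and 6, against 38.2% and 25.4%, and JunD at 4 and 0, against 17.8% and 3.22%. RARG, a retinoic acid receptor, had JunB at 7.83-fold and Jun at 11.9-fold in A549. CYP26B1, which breaks retinoic acid down, had JunB at 5.49-fold and JunD at 4.22-fold in A549. Neither gene had a Jun-family peak in B2B, and the share of all genes with this pattern was not computed. CYP26A1, which also breaks retinoic acid down, had pol II of 9.30-fold and H3K4me3 of 33.6-fold in A549 and neither in B2B. Med1 was found at 7 of the 12 genes compared in A549 and 10 in B2B, and over all genes too it was called more often in B2B, at 61.1% against 54.7%.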

How the data were processed

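ChIP-seq of A549 and B2B cells was analysed from the peak lists that the authors deposited. Per the labels and the methods of the study, reads were aligned to hg38 with Bowtie2 2.4.4, duplicates were removed, replicates were merged, read numbers were scaled with SAMtools 1.13, and peaks were called with MACS2 2.2.7.1, whose options and control were not given in the sources used here. For each peak the authors deposited a fold enrichment, which is a ratio, the −log10 of a p-value and of a q-value, and the offset of the summit. Every q-value was at most 0.01. The depth behind a list is unknown.

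Start sites came from GENCODE release 44, and RefSeq starts and promoters from the RefSeq tables for GRCh38.p14. The promoter table held 9 promoters, of 6 of the 8 genes, and all 9 equalled hg38. Only chromosomes 1 to 22, X and Y were used. A gene was called for a target if any of its start sites had a peak within 3 kb, and 20007 protein-coding genes were compared, or those before the end of both lists where a list ended early. Overlaps needed 1 bp and were found with Python 3.11.15. Interval counts were tested on simulated data, with 5000 intervals in a list, and gave the same number as bedtools 2.31.1 in 4 of 4 counts. Pileup and background were solved from fold enrichment and p-value for 192 of 197 promoter peaks, 190 of them within 0.05 of the deposited −log10 p. Plots were drawn with Matplotlib 3.10.9.

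All 8 genes are named. For each, the Jun-family region with the highest summed fold enrichment among those of A549 alone, B2B alone and both lines was chosen, and some of these regions are described. Other genes are named where at least 2 Jun proteins were called in one line and none in the other, and ANXA1, ALDH1A2 and CYP26A1 were named after their values were seen. The genes and lists were chosen with earlier results of these data known. Alternatives were distances of 1 and 10 kb, a −log10 q of at least 5, lists of equal length, the first start of the gene model alone and, added after the data were seen, the RefSeq start alone and, for JunB in the lists of related genes, lists of equal length. 1 gene of the list of AHR partners is not reported here. With pooled lists no test was run.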

Additional observations from a re-analysis of the deposited data

How the results depend on the processing

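No paired analysis was possible because each list pools the replicates and the counts come from no test; for the same reason no replicate could be left out. Of 108 values recomputed under another setting, 89 stayed within 1.5 times the reported count and 19 moved further. With the first start of the gene model alone, the genes called in B2B fell to 2 for pol II, 3 for H3K4me3, 2 for H3K27ac and 2 for Med1, and those called in A549 to 2 for Med1, 3 for JunB and 0 for JunD. With lists of equal length, the genes called for JunB in A549 fell to 0, and those of the 3 lists of related genes to 3, 2 and 4. At 10 kb, the B2B genes rose to 2 for JunB and 6 for Jun. With the RefSeq start alone, the B2B genes fell to 0 for JunB, 1 for Jun and 0 for JunD, and Jun-family regions of both lines to 18. In windows of 50 kb there were 28 regions of B2B alone and 17 of both lines. No setting turned the count of pol II or H3K4me3 genes toward B2B. The peak lists give no depth, so a gene without a peak was not called at that depth and is not shown to lack the protein or mark.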
